A study of Neurospora crassa with 84 samples.

Results

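A set of 150 genes of *Neurospora crassa*, 1.42% of the 10590 genes counted, was defined by the loss of its mRNA from wild-type female tissue after fertilization. For each gene the level was taken as CPM, the count scaled to a library total of 1000000 counts. The level before fertilization was the mean over days -2, -1 and 0 and the level after it the mean over days 1, 2, 4 and 6, each over the wild-type libraries of dark and light together and with 0.5 CPM added. A gene was a member where the level after was 0.25 of the level before or less and the level before was at least 10 CPM. The loss in the wild type is therefore how the genes were found, and it is given below as a description, with no test. The tests given below are those of the ∆ve-1 mutant, whose libraries the choice did not use. Comparisons within the wild type, between light and dark and between days of a stage, run on the libraries the choice averaged over and are given as descriptions: a gene could become a member through the condition or day in which it was high.

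The libraries came from the wild-type strain (OR74A, mating type A) and from a strain of the same mating type that lacks ve-1, both grown as the female partner on nitrogen-poor synthetic crossing medium at 22 °C, in constant darkness or in constant light. Conidia of a wild type of the opposite mating type, suspended in Tween, were spread over both strains, so every library from day 1 on may also hold RNA of the male partner, and no group here was treated with the suspension alone. Tissue was scraped from the whole surface of the plate on days -2 and -1, on day 0 just before fertilization and on 4 days from day 1 to day 6, and a group thus mixes vegetative hyphae, asexual spores and sexual structures. The 2 strains, 2 light conditions and 7 days make 28 groups of 3 libraries, 84 in all.

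Female tissue of *N. crassa* forms protoperithecia, coiled hyphal knots with receptive hyphae that grow toward a male cell of the other mating type. After fertilization a protoperithecium enlarges and melanizes into a perithecium, in which meiosis and ascospore formation take place. VE-1 belongs to the velvet complex, a fungal assembly of regulatory proteins that links sexual and asexual development and secondary metabolism to light, and its loss favours conidia, the orange asexual spores, over female organs. In the study the mutant formed fewer female organs than the wild type in the dark and very few in the light.

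Library totals lay between 14526546 and 18376011 counts, which leaves counting error small for all but the lowest members. The ve-1 count was 2272 to 11859 in the wild-type libraries and 101 to 281 in the mutant libraries, as the labels state. A pair of dark libraries of day -2 stood furthest apart in these genes. In wild-type replicate 1, 38 members were over 3-fold above both other libraries of the group; eas was at 23835 CPM there and at 1355 and 788 CPM in the others, and the conidiation gene con-6 at 371 CPM against 67.5 and 12.5 CPM. In mutant replicate 3, 25 members were over 3-fold above and 23 over 3-fold below both others, and vvd, a gene induced by light, was at 9.87 CPM against 58.0 and 52.0 CPM and con-6 at 51.4 CPM against 2236 and 1825 CPM. vvd also varied among the other unfertilized libraries of the dark mutant, from 10.4 to 129 CPM. In the unfertilized dark wild type vvd was at 8.52 to 18.0 CPM, a range that holds the value of mutant replicate 3. Wild-type dark replicate 1 of day -2 was at 15.9 CPM, and the unfertilized light wild type at 1258 to 3547 CPM. Whether the 2 libraries of day -2 had been exposed to other light or carry exchanged labels was not tested. By the same measure other libraries differed in fewer members: 16 were above and 10 below in wild-type dark day -1 replicate 1, 19 above in mutant dark day 1 replicate 2 and 17 below in wild-type light day -2 replicate 3. Results that rest on the 2 libraries of day -2 in the dark are given with and without them, an alternative added after seeing the data. Summed levels of 5 fruiting body genes went from 1096 to 2014 CPM before to 2916 to 23377 CPM after fertilization in the dark wild type, from 1643 to 3318 to 6236 to 29594 CPM in the light wild type and from 707 to 1777 to 1731 to 13206 CPM in the dark mutant, but stayed at 517 to 893 CPM and 515 to 894 CPM in the light mutant. Of the 5 genes, 4 were higher after fertilization in the dark wild type, 3 in the light wild type, 3 in the dark mutant and 2 in the light mutant. Summed levels of 7 conidiation genes other than the member eas were 42707 to 85083 CPM before fertilization in the light mutant, against 10370 to 33787 CPM in the unfertilized libraries of the other 3 conditions. By gene, the unfertilized means of con-6, con-8, con-10 and ccg-6 were highest in the light mutant. The others were not: ccg-1 was at 7896 CPM there against 13641 CPM in the dark wild type. ccg-9 was at 348 against 621 CPM in the dark wild type, and con-13 at 30.5 against 43.5 CPM in the light wild type. No marker on either list was at 0, and the part of these tissues in the results was not tested. With tissue of the whole surface, fewer cells of a type and less RNA per cell cannot be told apart.

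The members spanned a wide range of levels and of losses in the wild type. Levels are given throughout as the median CPM over the libraries of a stage, 9 before and 12 after fertilization in each strain and light condition, followed in parentheses by the lowest and the highest library. Their level before fertilization ran from 10.4 to 25419 CPM with a median of 120 CPM, 6 of them were above 1000 CPM, and after fertilization 26 were at less than 10% of it and 46 at more than 20%. Together they held 1.80% to 6.36% of all counts in the unfertilized dark wild type and 0.315% to 1.37% after fertilization, and 5.27% to 11.2% against 0.381% to 1.45% in the light. On day 1 the mean level over dark and light was at 0.25 of the level before, or less, in 82 members (median 24.1% of the level before), on day 2 in 144 (13.3%), on day 4 in 143 (9.66%) and on day 6 in 136 (11.4%). Taken by condition, and on means over the libraries, 94 members reached that limit in the dark libraries and 109 in the light libraries. On means all 150 were below their level before in the dark, but 11 were at or above it in the light. This does not hold for medians: the dark mean of eas went from 3218 to 1533 CPM, while its median rose. In wild-type dark day -2 replicate 1 eas was at 23835 CPM. Every unfertilized library lay above every fertilized one in 53 members in the dark and in 93 in the light. Near the limit, NCU02328, an O-methyltransferase, was kept at 0.2472 of its level before, cdc24, a guanine nucleotide exchange factor of polarized growth, at 0.2486 and NCU06153 at 0.2492. NCU00397 at 0.2509, NCU07482 at 0.2533 and NCU16007 at 0.2542 lay just outside it. Without the wild-type library that stood apart 147 genes were members, 145 of them among the 150.

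**Figure D1:**
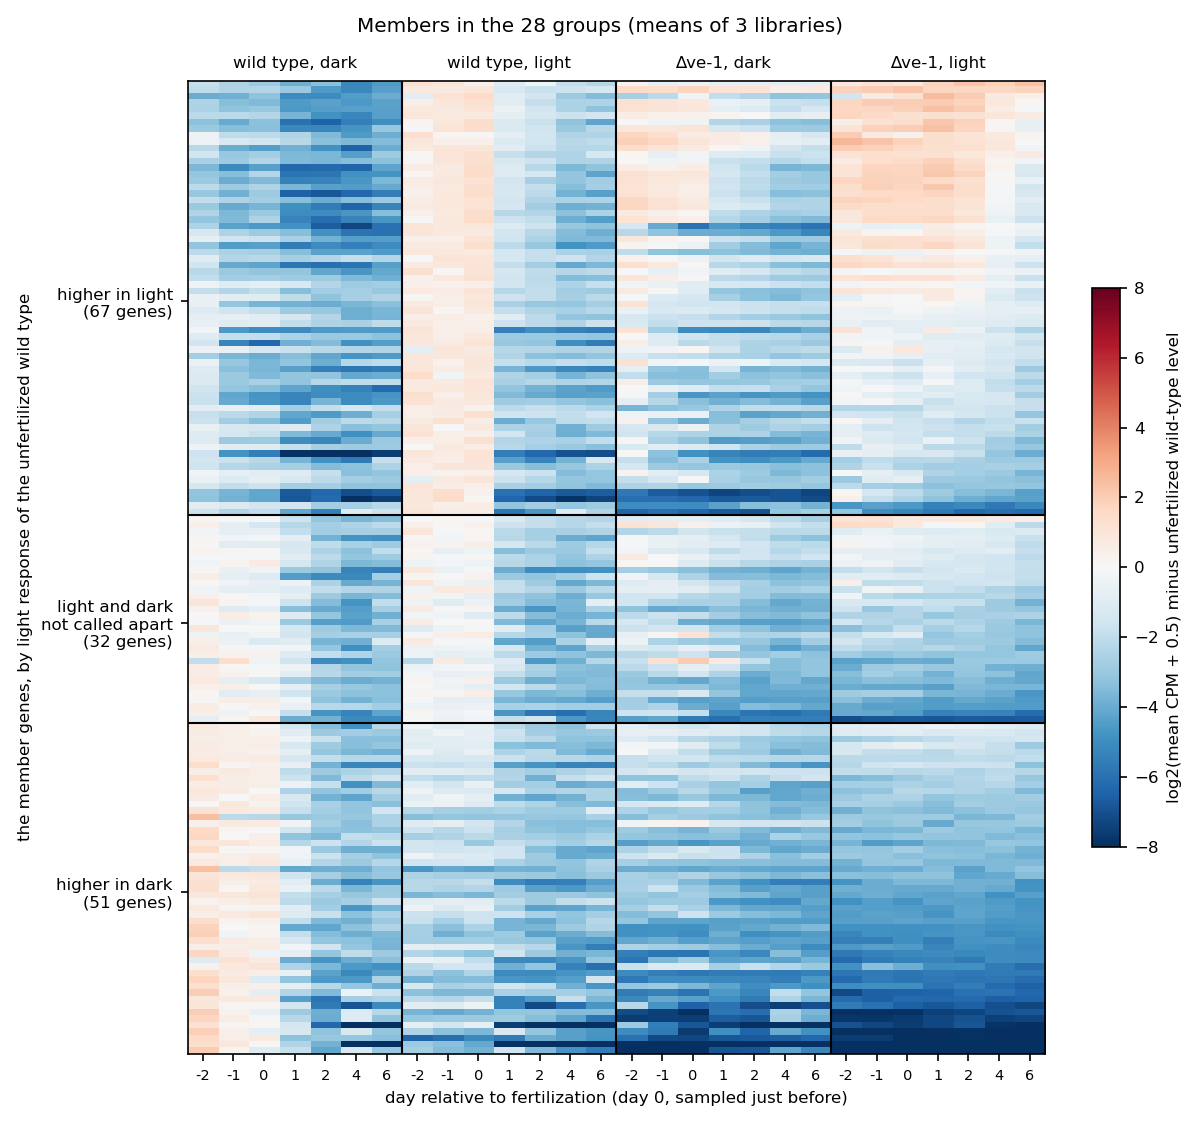
Heat map of the 150 members (rows) over the 28 groups (columns), coloured by the log2 of the group mean CPM + 0.5 minus the log2 level of the unfertilized wild type, with the colour scale limited at 8 on either side; members are ordered by their class of light response in the wild type. The fertilized wild-type columns are low by the choice of the members, many rows are already low in the unfertilized mutant, and the light mutant changes least after fertilization, with a median of 79.5% of the level before.

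The largest losses were those of 3 genes, a hypothetical protein and a pair of neighbouring oxidative enzymes. NCU09209, galactose oxidase-1, an enzyme class that oxidizes the sugar galactose, was 132-fold lower after fertilization. In the light it went from 479 CPM (305 to 1285) before to 1.48 CPM (0.426 to 3.58) after, and in the dark from 14.3 CPM (8.7 to 46.1) to 1.42 CPM (0.168 to 8.03). The highest fertilized library stood below the lowest unfertilized one in each condition. NCU09734, a hypothetical protein, was 121-fold lower, with 2047 CPM (929.7 to 3144) in the unfertilized light libraries and 9.47 CPM (6.69 to 37) in the fertilized ones. NCU09210, which lies next to NCU09209 on chromosome I and encodes a dye-decolourizing peroxidase, a heme enzyme, was 92.3-fold lower. The next 7 were metalloprotease-9 (NCU09859, 30.9-fold), NCU14029 (28.4-fold), NCU08657 (28.2-fold), the membrane protein TmpA (NCU00848, 21.5-fold), the cytochrome P450 NCU06327 (20.1-fold), NCU08455 (19.8-fold) and NCU00265 (17.6-fold).

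The most abundant member was eas (NCU08457), the hydrophobin that coats conidia with a water-repellent layer of rodlets, with a mean of 25419 CPM before fertilization. It was most abundant in the light: unfertilized light libraries held 45398 CPM (22174 to 70547) and fertilized ones 1446 CPM (299 to 4958), with no overlap. In the dark the same gene was at 444 CPM (90.4 to 23835) before and 967 CPM (58.6 to 4345) after, and the ranges overlapped. NCU00911, described as the polysaccharide synthase Cps1p, was the second most abundant with 3799.7 CPM, and it was high in both conditions. It held 3731 CPM (1208 to 7833) in the unfertilized dark libraries and 151 CPM (67.4 to 1466) in the fertilized ones, and 3584 CPM (1809 to 5487) against 93.6 CPM (47 to 171) in the light. The dark ranges overlapped and the light ones did not. The others of the 10 highest were pyridoxine-9 (NCU02930, 2295 CPM), NCU06327 (1265 CPM), NCU09693 (1213 CPM), NCU09734 (1106 CPM), oli (969 CPM), the ThiJ/PfpI family protein NCU06603 (964 CPM), NCU04482 (942 CPM) and choline-16 (NCU08364, 636 CPM).

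**Figure D2:**
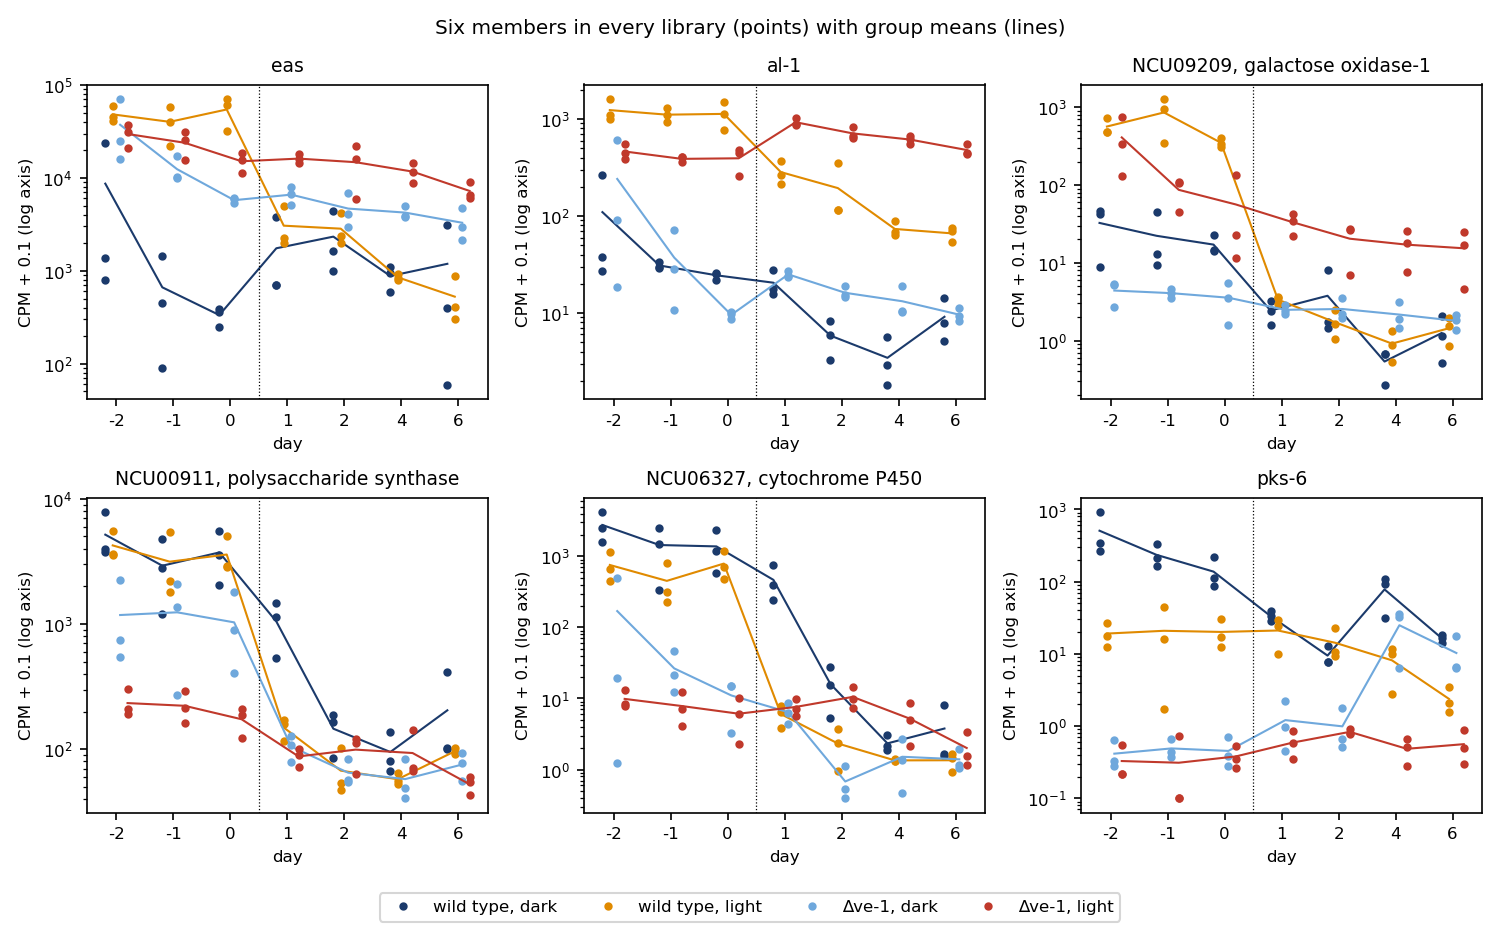
Levels of 6 members in every library, as CPM + 0.1 on a log axis, by day and by strain and light condition; each point is 1 library. For eas, al-1 and NCU09209 the unfertilized light wild type is above the dark one, NCU00911 is high in the unfertilized wild type in both conditions, and NCU06327 and pks-6 are lower in most mutant libraries than in the unfertilized dark wild type.

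Most members stood at different levels in light and dark before fertilization, and they were grouped by that difference. Of the 150 members, 67 were higher and 51 were lower in light than in dark in the unfertilized wild type by edgeR's quasi-likelihood test (Benjamini-Hochberg adjusted p under 0.05 over 9701 genes and a log2 change above 1 in size), while 7.03% and 8.62% of all genes tested were higher and lower and 15.6% were called in either direction. The choice averaged over these same libraries, so nothing is read from that share, and the values are descriptions. Without the wild-type library that stood apart, 119 members were called in place of 118. The 67 light-higher members had a median of 28.9 CPM in the dark and 236 CPM in the light, and the 51 dark-higher members 96.4 CPM in the dark and 19.9 CPM in the light. The 32 members that were not called apart had medians of 216 and 154 CPM.

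Among the light-higher members, NCU05883, a monooxygenase of the kind that acts on foreign compounds, was at 0.802 CPM (0.0636 to 23.2) in the dark and 191 CPM (30.3 to 409) in the light, a difference of log2 5.47 ± 0.665 (standard error). The ranges of dark and light did not overlap. The change of eas was log2 5.30 ± 0.537 and became 6.29 without the wild-type library that stood apart. NCU10016, of a family of desulfurizing enzymes, was at 3.13 CPM (1.78 to 30.7) in the dark and 202 CPM (54.5 to 307) in the light, a difference of log2 5.08 ± 0.486. The carotenoid genes al-1 and al-2, for phytoene desaturase and phytoene synthase of the orange pigment, are known to be induced by light. In the unfertilized wild type al-1 was at 29.2 CPM (21.9 to 265) in the dark and 1112 CPM (775 to 1617) in the light, a difference of log2 4.77 ± 0.384, and al-2 at 80.5 CPM (51.6 to 125) and 778 CPM (660.00 to 1079), a difference of log2 3.31 ± 0.164. Neither overlapped between dark and light.

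Among the dark-higher members, NCU00732, described as trichothecene C-15 hydroxylase, a type of cytochrome P450, was at 562 CPM (19.5 to 3809) in the dark and 6.59 CPM (4.7 to 20.2) in the light, a difference of log2 -6.89 ± 0.548. Its lowest dark library was just under its highest light library. NCU07036 was at 58.5 CPM (31.9 to 117) against 2.23 CPM (1.25 to 4.47), a difference of log2 -4.77 ± 0.283. NCU07034, near it on chromosome IV, changed by log2 -4.89 ± 0.667, but its dark level was 2.75 CPM (0.722 to 290.1), and a few libraries held most of it. cao-1, described as carotenoid oxygenase 1, was on the dark side too. It was at 33.6 CPM (21.2 to 37.5) in the dark and 11.4 CPM (7.36 to 18.3) in the light. The difference was log2 -1.37 ± 0.205.

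The mutant kept part of this pattern. Of the 67 members higher in light in the wild type, 30 were higher in light in the unfertilized mutant too, 35 were not called and 2 were lower. Of the 51 dark-higher members, 21 were lower in light in the mutant and 30 were not called. Over all members 35 were higher and 30 lower in light in the mutant, where 3.79% and 6.59% of all genes were. The 2 neighbours NCU09209 and NCU09210 had the largest light response of the mutant among the members higher in light. NCU09209 was at 3.99 CPM (1.5 to 5.42) in the dark and 110.1 CPM (11.5 to 761) in the light, a difference of log2 5.12 ± 0.423 (adjusted p = 1.39e-15), and NCU09210 at 3.63 CPM (2.09 to 17.2) and 285 CPM (29.7 to 1033), a difference of log2 5.57 ± 0.412 (adjusted p = 1.98e-17). mig-3, a 12-oxophytodienoate reductase of the old yellow enzyme family, followed with 18.6 CPM (8.15 to 51.6) in the dark and 209 CPM (155 to 337) in the light, a difference of log2 3.64 ± 0.22 (adjusted p = 6.51e-21). For al-1 the response of the mutant was log2 3.35 ± 0.361 (adjusted p = 1.58e-11). For eas, with 10089 CPM (5304 to 70993) in the dark mutant and 20725 CPM (11184 to 37377) in the light mutant, it was log2 0.79 ± 0.449 (adjusted p = 0.137) and was not called. On the dark side, NCU09372 was at 50.1 CPM (2.75 to 1176) in the dark and 7.25 CPM (4.46 to 8.42) in the light, a difference of log2 -4.61 ± 0.601 (adjusted p = 3.81e-09). NCU02921 had the largest fitted difference in either direction, at log2 -7.02, but it held 440 counts over the 9 unfertilized dark libraries and 2 counts over the 9 light ones, and NCU16494 held 237 and 12 counts. Whether a member's light response differed between the strains was not tested.

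**Figure D3:**
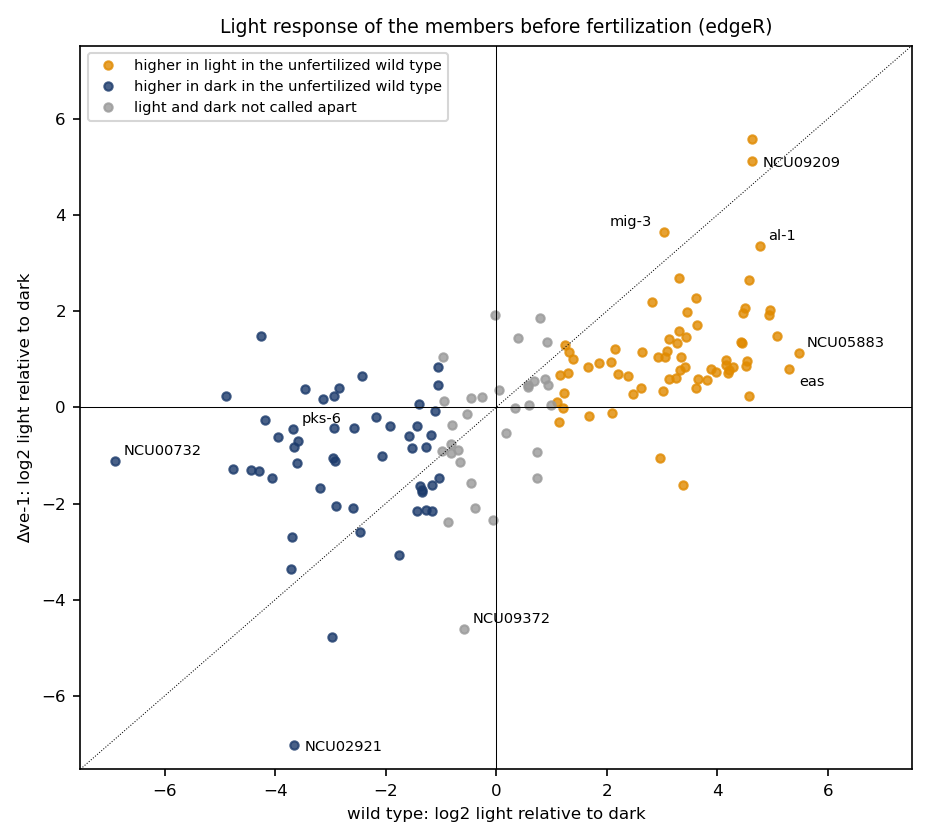
Log2 difference between light and dark before fertilization for each member, in the wild type (horizontal axis) and in ∆ve-1 (vertical axis), coloured by the call in the wild type; the dotted line marks equal differences. Of the 67 light-higher members 30 were called higher in light in the mutant as well, and of the 51 dark-higher members 21 were called lower, while al-1, NCU09209 and mig-3 lie far up in both strains.

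Before fertilization the 2 kinds of members stood at different levels in the mutant, given here as a description. The classes were cut on the same unfertilized wild-type libraries that are the reference here. That choice can by itself move the ratios to the wild type apart between the classes, and nothing is read from their size. The 67 light-higher members had a median of 95.9 CPM in the dark mutant and of 184 CPM in the light mutant, and member by member the dark mutant was at a median of 335% of the dark wild type and the light mutant at 59.9% of the light wild type. In the dark 41 of them were at 200% of the wild type or more. The 51 dark-higher members had medians of 4.79 and 2.40 CPM in the mutant, with a median of 7.02% of the wild type in the dark and 21.4% in the light. In the dark 45 of them were at 25% of the wild type or less, and 24 were under 2 CPM in the light mutant. Pyridoxine-9 (NCU02930), named for a step of vitamin B6 metabolism, is an example, at 4004 CPM (1174 to 11190.1) in the unfertilized dark wild type and 42.2 CPM (27.3 to 62.7) in the dark mutant. NCU04482 is another, with 982 CPM (458 to 2769) against 20.5 CPM (14.6 to 100.2). Their ranges in the 2 strains did not overlap.

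In the dark mutant most members fell after fertilization as well. The test found 89 of 150 members lower and 11 higher over days 1 to 6 than over days -2 to 0, where 3.67% and 13.8% of all genes were. The median change of the members was -1.20 on the log2 scale, that of all genes -0.03. Without the mutant library that stood apart 78 members were lower, and 78 without both such libraries. More members were lower on the later days: set against the mean before, 56 members were lower on day 1, 74 on day 2, 93 on day 4 and 92 on day 6, with medians of -0.82, -1.05, -1.42 and -1.54, while 3.08%, 3.66%, 5.01% and 5.4% of all genes were lower. Day 1 alone against day 0 gave 32 members lower. As a description on the level, 40 members reached 0.25 of their level before, against 94 in the dark wild type. The choice of members sets the wild-type count high, and 19 members were under 2 CPM in the unfertilized dark mutant. Nothing is read from the gap between the counts.

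NCU06327, a cytochrome P450 described as benzoate 4-monooxygenase, had the largest fall in the dark mutant, a difference of log2 -4.39 ± 0.512 (adjusted p = 7.16e-11), from 14.9 CPM (1.13 to 489) to 1.17 CPM (0.294 to 8.62). The ranges overlapped, and the change was -3.06 without the mutant library that stood apart. In the dark wild type the same gene went from 1591 CPM (337 to 4202) to 6.65 CPM (1.45 to 768). NCU00911, the polysaccharide synthase, fell without overlap of its libraries, from 889.6 CPM (273 to 2239) to 78.2 CPM (40.5 to 128), a difference of log2 -3.84 ± 0.296 (adjusted p = 2.23e-17). NCU07820, described as a transporter of pantothenate, the precursor of coenzyme A, went from 154 CPM (37.2 to 307) to 4.52 CPM (3.11 to 49.4), a difference of log2 -3.66 ± 0.466 (adjusted p = 9.15e-10). oli, the nuclear gene for the proteolipid subunit of mitochondrial ATP synthase, fell from 689 CPM (442 to 1374) to 177 CPM (84.5 to 402), a difference of log2 -1.77 ± 0.189 (adjusted p = 4.36e-12), again without overlap. eas fell by less in the dark mutant, a difference of log2 -1.49 ± 0.417 (adjusted p = 0.00163), from 10089 CPM (5304 to 70993) to 4406 CPM (2152 to 7941), and by 1.21 without the mutant library that stood apart. The call of al-1 (log2 -1.44 ± 0.315, adjusted p = 7.96e-05) rested on that library: its change was -0.73 without it, and -0.76 without replicate 3 of every group. The same held for chit-1, a chitinase, at -1.87 with that library and -0.99 without it.

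In the light mutant the loss was called in fewer members, most of them on the later days. Over all days after fertilization 33 members were lower and 8 higher, where 2.02% and 6.71% of all genes were, and the median change of the members was -0.34 (all genes -0.00). Against the mean before, 7 members were lower on day 1, 7 on day 2, 30 on day 4 and 58 on day 6, with medians of 0.01, -0.16, -0.47 and -0.79, while 1.11%, 0.752%, 2.19% and 6.87% of all genes were lower. The largest falls were those of NCU05712, described as a regulator of cell death, at 1.18 CPM (0.253 to 1.85) before and 0.181 CPM (0 to 0.617) after, a difference of log2 -2.67 ± 0.55 (adjusted p = 5.26e-05), of NCU09209, with 110.1 CPM (11.5 to 761) and 23.2 CPM (4.5 to 42.9), a difference of log2 -2.49 ± 0.331 (adjusted p = 8.2e-09), and of NCU09210, with 285 CPM (29.7 to 1033) and 54.7 CPM (11.8 to 98.9), a difference of log2 -2.36 ± 0.317 (adjusted p = 1.1e-08). The libraries before and after overlapped in all 3 genes. NCU00911 fell here too, from 209.97 CPM (124 to 300.2) to 71.6 CPM (42.9 to 142), a difference of log2 -1.25 ± 0.277 (adjusted p = 0.000151). The change of eas was log2 -0.77 ± 0.415 (adjusted p = 0.115), and that of al-1 was 0.81 ± 0.312 (adjusted p = 0.0263), under the size a call needed. Of the 8 higher members, NCU07609, a transporter of the major facilitator family, went from 58.6 CPM (11.1 to 223) to 167 CPM (47.9 to 670.3), a difference of log2 1.44 ± 0.408 (adjusted p = 0.00254), a call that was lost without replicate 2 of every group (log2 1.17).

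Called in both light conditions of the mutant were 27 members lower and 4 higher. A further 61 were lower in the dark and not called in the light, and 4 lower in the light and not called in the dark. The difference between the changes was tested directly: 60 members had a change that was higher in light than in dark, which is a smaller fall for most of them, and 4 a lower one, where 2.6% and 6.48% of all genes had, 9.08% in either direction. Without replicate 1, 2 or 3 of every group the 64 calls became 46 to 51. NCU06327 differed by log2 3.97 ± 0.701 (adjusted p = 9.19e-06), and by 2.63 without the mutant library that stood apart. NCU04725, N-acetylglucosamine-6-phosphate deacetylase, which acts in the use of the chitin sugar, fell from 151 CPM (46.7 to 258) to 13.1 CPM (10 to 25.7) in the dark and was at 64.8 CPM (36.1 to 102) before and 69 CPM (23.1 to 128) after in the light, a difference of log2 3.31 ± 0.355 (adjusted p = 2.27e-11). The difference of NCU09372 (log2 3.45 ± 0.719, adjusted p = 0.000137) was lost without replicate 1 of every group, at 1.13. In the other direction stood NCU05189 (difference log2 -3.72 ± 0.576, adjusted p = 6.2e-07) and NCU06413 (log2 -3.28 ± 0.464, adjusted p = 6.79e-08). Both are hypothetical proteins that rose in the dark and fell in the light. Counts of NCU05189 were low, with 76 over 9 unfertilized and 419 over 12 fertilized libraries in the dark. In the light it held 136 and 57. NCU06413 went from 1.43 CPM (0.734 to 3.59) to 7.86 CPM (0.651 to 35.6) in the dark and from 6.79 CPM (1.63 to 30.7) to 2.55 CPM (0.655 to 3.78) in the light. NCU09209 and NCU09210 made up the 4, and the calls of both were lost without replicate 1 of every group, at -1.45 and -1.38.

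**Figure D4:**
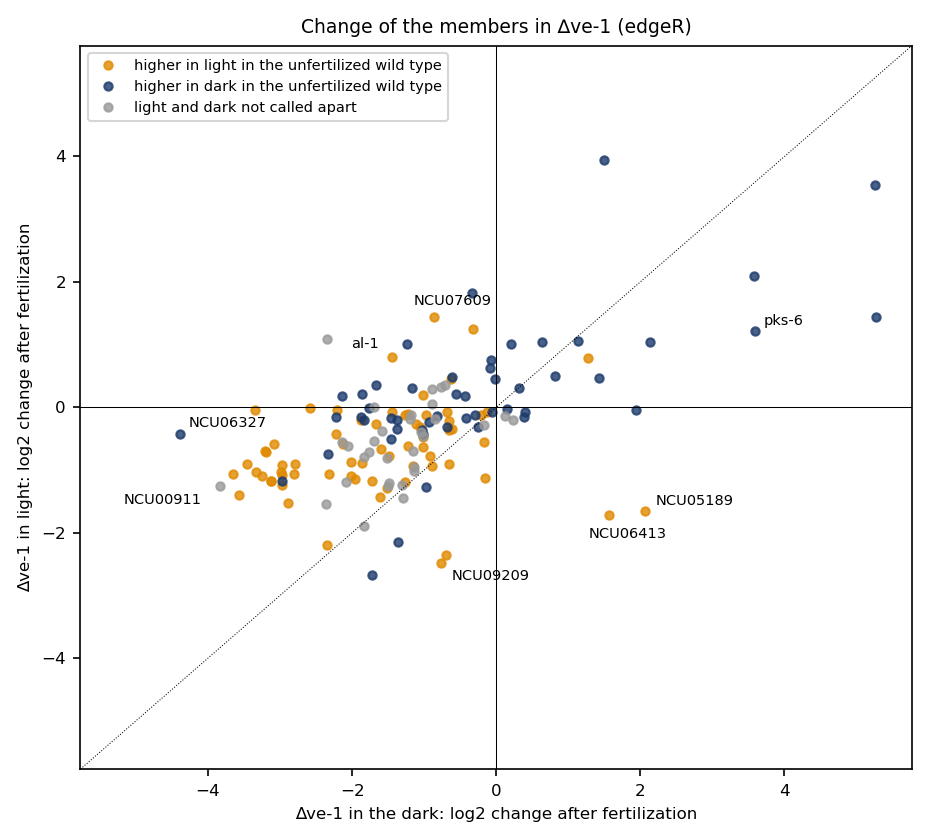
Log2 change after fertilization of each member in ∆ve-1, in the dark (horizontal axis) and in the light (vertical axis), coloured by the light response in the unfertilized wild type; the dotted line marks equal changes. Most points lie left of 0 and above the line, with 89 members called lower in the dark and 33 in the light, and the few that are far to the right include pks-6 and its neighbours.

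The changes in the mutant were also counted by the light response of the members in the wild type. Of the 67 light-higher members, 47 fell and 3 rose in the dark mutant (median -1.51), and 24 fell and 2 rose in the light mutant (median -0.77). In medians of the members' CPM they went from 95.9 to 16.7 in the dark mutant and from 184 to 117 in the light mutant, against 28.9 to 6.62 and 236 to 19.0 in the wild type. Of the 51 dark-higher members, 19 fell and 8 rose in the dark mutant and 2 fell and 6 rose in the light mutant, with medians of 4.79 before and 4.92 CPM after in the dark, and 2.40 and 2.75 CPM in the light. In the wild type their medians were 96.4 and 14 CPM in the dark and 19.9 and 5.77 CPM in the light. Of the 32 members not called apart, 23 fell in the dark mutant and 7 in the light mutant, and none rose in either.

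**Figure D5:**
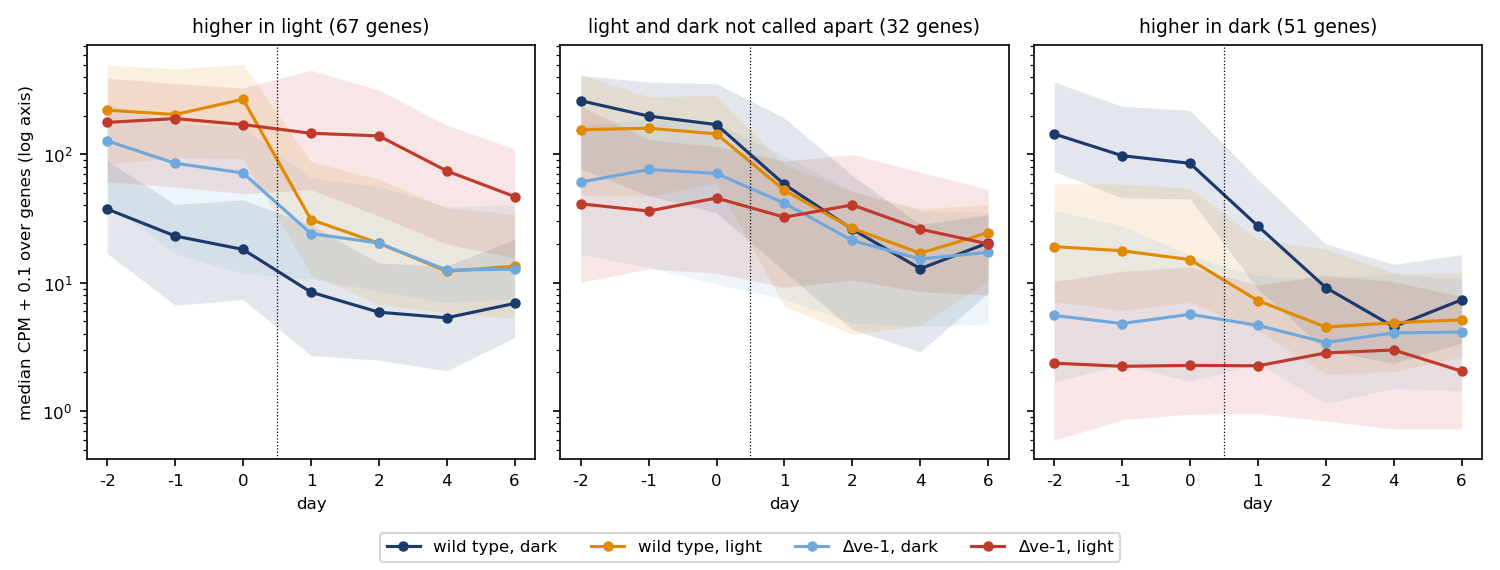
Median level of the members of each light response class (lines) with the band from the lower to the upper quartile, by day, for the 4 combinations of strain and light. Levels are CPM with a small offset added, on a log scale. The dark-higher members lie low in the mutant on every day, with medians of 4.79 and 2.40 CPM before fertilization, and the light-higher members remain high in the light mutant, at 117 CPM after it.

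Few members rose in the mutant, and 5 of the 11 that rose in the dark lie side by side. These are pks-6, for a polyketide synthase, an enzyme that builds the carbon chain of secondary metabolites, the short-chain dehydrogenase/reductase NCU02922, the cupin domain proteins NCU02919 and NCU02921, and NCU02923. They occupy 5 of 6 successive genes on chromosome I between positions 8682441 and 8699834 of the NC12 assembly. In the unfertilized wild type all 5 were higher in the dark: pks-6 was at 217 CPM (85.9 to 921) in the dark and 17 CPM (1.65 to 44.9) in the light. After fertilization the dark wild type held 23.4 CPM (7.67 to 110.5). In the dark mutant pks-6 was at 0.288 CPM (0.176 to 0.595) before and 4.18 CPM (0.355 to 35.4) after fertilization (log2 3.59 ± 0.539, adjusted p = 6.3e-08), from 52 counts over 9 libraries to 1816 over 12. It rose there from a level far under that of the wild type, and its highest fertilized library stayed below the lowest unfertilized one of the dark wild type. NCU02919 rose from 45 to 2847 counts (log2 5.26 ± 0.561, adjusted p = 5.44e-12), NCU02923 by log2 3.58 ± 0.404 (adjusted p = 2.53e-11), NCU02922 by log2 2.14 and NCU02921 by log2 1.49, and that of NCU02921 was lost without replicate 1 of every group (1.11). In the light mutant NCU02923 was at 0.514 CPM (0 to 1.32) before and 1.65 CPM (0.743 to 2.85) after, a difference of log2 2.10 ± 0.537 (adjusted p = 0.000864), and NCU02919 held 5 counts over 9 libraries before and 54 over 12 after. Pyridoxine-9 (NCU02930) rose in the dark mutant too (log2 1.42 ± 0.237, adjusted p = 6.42e-07), from 42.2 CPM (27.3 to 62.7) to 99.4 CPM (56.4 to 263). NCU09163 held 1 count over the 9 unfertilized dark mutant libraries and 94 over the 12 fertilized ones. In the light mutant it had 0 counts in the 9 unfertilized libraries, which allows a level of up to 0.0201 CPM, and 5 in the 12 fertilized ones.

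Members often had a member beside them on the chromosome. This was so for 39 of the 150 (26.0%), against 2.43% of the other genes, as a description of the map. Allowing 1 gene between them, 41 members formed 17 runs, and 5 runs held 3 members or more. In 15 of the 17 the members shared a single class of light response, and in none did light-higher and dark-higher members lie together. The classes held 67, 51 and 32 members and were cut on libraries the choice used. Most runs were pairs, and nothing is read from the count of 15. A light-higher run, NCU05886 to NCU05888 on chromosome VII (positions 4166232 to 4172944), holds a gene described as dibenzothiophene desulfurization enzyme A (NCU05888), an oxidoreductase and a membrane protein, and all 3 fell in the dark mutant. NCU05888 went there from 139 CPM (49.5 to 331) to 11.8 CPM (5.6 to 72.5), a difference of log2 -3.25 ± 0.388 (adjusted p = 1.49e-10). A dark-higher run on chromosome IV (2898675 to 2909306) has the P450 gene NCU06327 between NCU06328 and the pectate lyase NCU06326. Further runs of 3 were NCU07737, NCU07736 and NCU09823 on chromosome V (484764 to 513604), with a gene described as salicylate hydroxylase, and NCU07819 to NCU07821 on chromosome III (976728 to 983387), with the pantothenate transporter and a dimethylaniline monooxygenase. Chromosome IV held 38 members, 2.38% of its genes, and chromosome VII 28, 2.46% of its genes, and 1 member, NADH dehydrogenase subunit 2, is encoded by the mitochondrial genome. The gene length of the members was close to that of all genes, with medians of 2014 and 2026 bases.

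By their descriptions, 86 members had a product other than a hypothetical or unspecified protein. The 9 enzymes that act on cell walls and polysaccharides, among them 2 chitinases, a mixed-linked glucanase and a glucanosyltransferase, included 7 that fell in the dark mutant and 2 in the light mutant, with none that rose, while over all members 59.3% fell in the dark and 22.0% in the light mutant, against 3.67% and 2.02% of all genes. With so few genes in a group, no group is set apart from the other members. gh16-1, the mixed-linked glucanase, went from 47.9 CPM (25.4 to 167) to 14.7 CPM (10.3 to 90.4) in the dark mutant, a difference of log2 -1.38 ± 0.231 (adjusted p = 7.03e-07). NCU05974, the wall glucanosyltransferase Mwg1, an enzyme that remodels glucan, fell from 52.9 CPM (41.7 to 301) to 19.1 CPM (9.71 to 139), a difference of log2 -2.06 ± 0.245 (adjusted p = 1.35e-10). Of 10 membrane transporters 9 fell in the dark mutant, 1 fell and 2 rose in the light mutant, and the change of 9 was higher in light than in dark, as it was in 60 of the 150 members. The amino acid permease NCU04435 is an example, with 58 CPM (24.2 to 174) before and 9.68 CPM (7.08 to 36.5) after in the dark, a difference of log2 -2.21 ± 0.216 (adjusted p = 2.11e-13) and a change of -0.05 ± 0.209 (adjusted p = 0.89) in the light. Of 23 members whose description names a cytochrome P450, oxidoreductase, dehydrogenase, monooxygenase or reductase, 13 fell and 2 rose in the dark mutant, and 5 fell and 1 rose in the light mutant. These words do not find every oxidative enzyme: NCU00732, NCU09209, NCU09210 and the taurine dioxygenases named below are not among the 23. The only member with the description of a transcription factor was sah-1, a zinc finger regulator, at 94.7 CPM (52 to 174) before and 44.6 CPM (27.1 to 70.1) after in the dark mutant, a difference of log2 -1.11 ± 0.129 (adjusted p = 6.66e-11), a call that was lost without replicate 2 of every group (-0.97).

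Several members are named for the uptake or release of sulfur, a grouping made after their values were seen. Taurine dioxygenases, which in bacteria free sulfite from taurine, were present as NCU01057, NCU02196 and NCU07610. NCU01057 fell in the dark mutant from 473 CPM (132 to 823) to 31.8 CPM (18.7 to 112), a difference of log2 -3.13 ± 0.259 (adjusted p = 3.68e-16), NCU02196 by 2.97 ± 0.36 on the log2 scale (adjusted p = 2.13e-10) and NCU07610 by 2.59 ± 0.435 (adjusted p = 7.6e-07). The sulfate permease gene cys-14 went from 196 CPM (124 to 267) to 45.4 CPM (30.5 to 118) in the dark mutant, a difference of log2 -1.67 ± 0.225 (adjusted p = 4.24e-09) and was at 501 CPM (221 to 772) and 389.8 CPM (109 to 1075) in the light mutant, where the change was -0.27 ± 0.223 (adjusted p = 0.322). The light mutant held cys-14 mRNA after fertilization at levels that overlapped those before it, while in the light wild type it was at 386 CPM (121 to 589) before and 41.6 CPM (34.1 to 143) after. NCU10016 and NCU05888, the desulfurizing enzymes named above, fell in the dark mutant too, NCU10016 by 3.34 ± 0.402 on the log2 scale (adjusted p = 1.84e-10). The light mutant differed by gene. NCU01057 (log2 -1.17), NCU05888 (-1.09), NCU02196 (-1.08) and NCU10016 (-1.03) were called lower there as well. NCU07610 (-0.01) and cys-14 were not called. All 6 were higher in light in the unfertilized wild type, as were 67 of the 150 members and 7.03% of all genes. The choice used these libraries, and nothing is read from that count.

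Further members with a gene symbol were tested in the dark mutant. nit-6, nitrite reductase of nitrate assimilation, went from 15.3 CPM (8.41 to 101) to 6.41 CPM (3 to 14.7), a difference of log2 -1.86 ± 0.384 (adjusted p = 3.27e-05), and gh18-4, a chitinase, from 43.4 CPM (7.5 to 563) to 9.31 CPM (7.51 to 15.8), a difference of log2 -2.32 ± 0.387 (adjusted p = 6.41e-07). fld, described as ADA-7, went from 91.9 CPM (65.7 to 279) to 34 CPM (26.8 to 46.5), with no overlap of the libraries (log2 -1.52 ± 0.129, adjusted p = 9.87e-16). pyr-4, an enzyme of uridine synthesis, changed by log2 -1.27 in the dark and -1.19 in the light mutant, and the dark call was lost without replicate 3 of every group (-0.96). mig-4 (log2 -1.86), cut-1 (-1.59), mig-3 (-1.27), pks-3 (-1.22), gcy-1 (-1.16), mig-2 (-1.16), gh10-4 (-1.02) and cao-1 (-1.02) were called lower as well, the last 5 with calls that were lost without at least 1 replicate of every group. al-2 (-0.63), cdc24 (-0.44), mig-9 (-0.85), cyp450-31 (-0.06) and pho-3, an acid phosphatase (0.82), were not called.

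Within the days before fertilization few members differed in the light wild type, and in the dark the count rested on single replicates. The choice used these libraries, and nothing is read from the share of members. In the dark wild type 35 members were lower and 1 higher on day 0 than on day -2, where 1.79% and 0.887% of all genes were, 2.68% in either direction. The 36 calls became 2 without replicate 1 and 9 without replicate 2 of every group, and 19 without the wild-type library that stood apart. eas (log2 -4.74 ± 0.905) and NCU09859 (-5.69 ± 1.16) had 2 of the largest differences and neither was called without that library, at -1.80 and -1.85. NCU07033 (-4.94 ± 0.945) was at -0.53 without replicate 3 of every group, and NCU04482, the 1 member called higher (1.47), was not called without that library or any replicate. In the light wild type 2 members were lower and 3 higher, against 0.402% and 0.268% of all genes, 0.67% in either direction, and DESeq2 called 6. Without replicate 1 and without replicate 2 of every group edgeR called 0, with 19 and 18 members at an unadjusted p under 0.05. The 2 lower were NCU03011 (log2 -1.55) and cut-1 (-1.53), and the 3 higher were NCU07609 (2.52), alcohol dehydrogenase-10 (NCU02128, 1.70) and NCU09354 (1.48).

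After fertilization the level went on falling in many members and rose again in some, again as a description of libraries that the choice used. From day 1 to day 6, 62 members fell and 14 rose in the dark wild type, where 8.4% and 17.9% of all genes did (26.3% in either direction), and 52 fell and 16 rose in the light wild type, where 10.2% and 17% did (27.2% in either direction). Without replicate 2 of every group the 68 calls of the light became 43. In the dark NCU06327 fell by log2 6.89 (SE 1.04), NCU08657 by 6.86 (SE 1.06) and the salicylate hydroxylase NCU07737 by 4.65 (SE 0.486). Those that rose were led by the transporter NCU05884 (log2 2.99 ± 1.18), NCU09039 (log2 2.78 ± 1.1) and NCU09163 (log2 2.75 ± 0.749), and the first 2 calls were lost without replicate 1 or replicate 3 of every group. In the light NCU02919 fell by log2 3.86 (SE 0.706), NCU04487 by 3.62 and NCU05712 by 3.47. NCU06413 rose by log2 3.69 (SE 0.558), NCU11340 by 3.64 and the O-methyltransferase NCU02328 by 3.61. Perithecia mature over these days in the wild type, and the share of the tissues in a scraping was not measured.

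Of 53 genes on 6 lists of known sexual, conidiation and light genes, 3 were members, eas, al-1 and al-2, where 1.42% of all genes were. The lists were chosen with earlier results of these data known, and nothing is read from that count. The share of all genes that rose was 13.8% in the dark and 6.71% in the light mutant. None of the 4 pheromone and receptor genes fell in the mutant after fertilization, and 2 rose in each light condition. Of the 3 mating type A genes 1 rose in the dark and 2 in the light mutant, and of the 8 genes of perithecial development 4 rose in the dark and 1 in the light mutant. The 16 genes of the MAP kinase and cell fusion pathways named by the study had 2 that rose in the dark, close to the share of all genes, and none called in the light. Among the 11 light and clock genes, 9 were higher in light in the unfertilized wild type and 8 in the mutant, with medians of 2.34 and 2.19, where 7.03% and 3.79% of all genes were higher. Among the 11 conidiation genes, 8 were higher and 2 lower in light in the wild type, and 4 higher in the mutant.

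Among 8527 genes whose highest group mean was at least 10 CPM, those outside the set with a course most like the mean course of the members, over the 28 group means of log2(CPM + 0.5), were NCU07379, described as transcription factor-5 (Pearson r = 0.940), the carrier proteins NCU02352 (r = 0.936) and NCU02946 (r = 0.935), the zinc transporter NCU01254 (r = 0.916) and hydroxyacid dehydrogenase-1 (NCU04857, r = 0.912). These are descriptions over group means of the same 84 libraries, and nothing is said of shared control.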

How the data were processed

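Poly-A selected, strand-specific RNA libraries were sequenced from 84 samples. The authors trimmed the reads with fastp, aligned them with STAR (version 2.7 per the labels) to the OR74A genome, assembly NC12, and counted reads per gene with featureCounts using strand. The deposited values are raw counts per gene, one table for all samples, and a library held 14526546 to 18376011 counts. The study's methods state that tissue of replicates was pooled at RNA extraction, so p-values measure the spread between these libraries. No 2 replicates agreed within sampling noise, since the chi-square per degree of freedom was at least 12.2.

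Members were found on plain CPM as the opening states; the limit of 300 members was not reached. The members and all gene lists were chosen with earlier results of these data known. Counts were tested in R 4.3.3 with edgeR 4.0.16 (quasi-likelihood test, trimmed mean of M-values scaling, filterByExpr, a mean for each of 28 groups) on 9701 genes, and all 150 members passed the filter. A call needed a Benjamini-Hochberg adjusted p under 0.05 and a log2 change above 1 in size. The standard error was the log2 change divided by the square root of F. The code was tested on simulated data. Named were members with a RefSeq symbol or on a list, the 10 with the largest loss, the 10 most abundant, the 3 genes on either side of the limit and the 3 most changed in each direction of each contrast. Members described by their place in a run, and the sulfur, wall glucan and amino acid permease examples, were chosen after their values were seen. Symbols and coordinates came from RefSeq's annotation of NC12, where all 10590 genes matched. Products came from the study's supplementary gene annotation and were at hand for part of the genes, so groups by product were counted among members alone. The light minus dark difference of the change in the wild type had been planned and is not given, since the choice of members used it, and the other comparisons within the wild type are given without p-values. DESeq2 1.42.0, other scalings, no filter, a replicate block, other limits and leaving out replicates were the alternatives.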

Additional observations from a re-analysis of the deposited data

Results flagged for a closer look

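The change after fertilization differed between light and dark, by the interaction test, in 64 members in the mutant, where 9.08% of all genes were called. Those with the largest differences, light minus dark on the log2 scale, were NCU06327 at 3.97, NCU09372 at 3.45 and NCU04725 at 3.31 on one side, and NCU05189 at -3.72, NCU06413 at -3.28 and NCU09209 at -1.74 on the other. No group had the 4 samples needed to look for single samples far from the others in the usual way.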

How the results depend on the processing

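Of 150 counts of called members recomputed under the alternatives, 16 moved by more than 1.5 times, and of 3663 values of single genes 274 lost their call and 0 changed direction. For members lower in the mutant after fertilization, day 1 against day 0 gave 32 in the dark and 5 in the light, and adjusted p alone gave 53 in the light. For the light minus dark difference of the change in the mutant, day 1 against day 0 gave 6. Day 0 against day -2 gave 19 members in the dark wild type without replicate 1 of that group on day -2, and 20 without that library and the mutant one, which left 8 in the light wild type. In that light comparison, members by a limit of 0.2 gave 2 and members by TMM-scaled CPM gave 3. Day 6 against day 1 gave 45 in the dark and 45 in the light for members by a limit of 0.2, where fewer members (104) were counted. The cause of the other moves was not tested.

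Leaving out each replicate in turn, or either or both of the libraries that stood apart, gave 74 to 89 members lower in the dark mutant, 25 to 34 in the light mutant, 46 to 66 for the light minus dark difference in the mutant, 116 to 120 and 56 to 76 for light against dark in the unfertilized wild type and mutant, 2 to 43 and 0 to 8 for day 0 against day -2 in dark and light, and 68 to 80 and 43 to 72 for day 6 against day 1. DESeq2 gave 86 members lower in the dark mutant and 36 in the light mutant. Scaling to library totals alone shifted the median of all genes by -0.115 and -0.123 in these comparisons and gave 96 and 40. By the dark wild-type libraries alone 143 genes were members, of which 94 are among the 150, and by the light ones alone 160, of which 106 are.

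Libraries with the same replicate number were little alike in the median. Over 1134 pairs with the same number in different groups the median correlation of deviations was 0.057, against -0.030 for different numbers. The pairs ran from -0.696 to 0.581, with 37.0% over 0.1. Whether numbers pair the samples within a strain or light condition was not tested. With the replicate number as a block, the counts were 89 and 33 for the mutant in dark and light, 63 for the light minus dark difference in the mutant, 118 and 66 for light against dark, 38 and 6 for day 0 against day -2 and 75 and 71 for day 6 against day 1.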

Other observations

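As a share of all counts the members without eas held 1.76% to 4.59% in the dark wild type before fertilization and 0.257% to 1.30% after it. Members were at 1.89% to 9.40% before and 0.599% to 1.76% after in the dark mutant, and at 3.18% to 6.46% and 1.47% to 4.68% in the light mutant, where the ranges overlap. Every unfertilized library lay above every fertilized one in 16 members in the dark mutant and in 4 in the light mutant. The one member of the mitochondrial genome, NADH dehydrogenase subunit 2, was 4.24-fold lower after fertilization in the wild type.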
